A study of Drosophila melanogaster with 3 samples.

Results

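The large subunit of the cytoplasmic ribosome is built in Drosophila melanogaster from proteins whose genes are named RpL. Protein-coding genes of the dm6 annotation whose symbol is RpL followed by a digit or by P were taken, which leaves out the mitochondrial mRpL genes. This gave 54 genes of 13968 protein-coding genes. Binding was measured by ChIP-seq, which sequences the DNA fragments recovered with a protein by an antibody. The protein was CG10209 with green fluorescent protein (GFP) fused to its C-terminus, produced from a stable transgene and recovered with an antibody against GFP. All material was whole embryos of both sexes, pooled from 0 to 24 h of development, so tissues and stages are mixed. There was 1 group of 3 biological replicates and no second condition, and a protein carrying a tag from an added gene copy stands in for the native one.

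Ribosomal proteins are needed in nearly equal amounts, and flies with 1 working copy of many of their genes develop slowly and have thin bristles, the Minute phenotype. Transcription of these genes in flies typically begins within a short run of pyrimidines, the polypyrimidine initiator, and does not depend on a TATA box. The DNA replication-related element (DRE), which the factor DREF recognises, and core promoter motif 1, which the factor M1BP recognises, are common near the starts of housekeeping genes of this kind.

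The authors deposited lists of regions in which each region has a signal value, a −log10 q and a summit, its point of highest enrichment. Each replicate has its own list of 30000 regions, as do the replicates together (the pooled list), background included. A shorter list, of 6307 peaks, was selected by the authors for similar ranks in the replicates (irreproducible discovery rate, IDR), and its peaks carry their pooled values. Signal values are on different scales in different lists, so they were compared within a list and replicates were compared by rank, 1 being the highest. Read depth per sample is unknown, because the lists give no read counts. Regions with a −log10 q of 2 or more, a q of 0.01, numbered 4296 in replicate 1, 9183 in replicate 2 and 9015 in replicate 3. A promoter peak is an IDR peak with its summit within 500 bp of any annotated start of a gene.

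Of the 54 RpL genes, 43 had a promoter peak (79.6%), while 21.5% of all protein-coding genes did. Those 43 peaks were all distinct. Their median signal value was 714, with a 95% order-statistic interval over genes of 489.8 to 971. These genes share the same libraries, so the interval describes spread over genes, not over replicates, and is no test against other genes. Over the 3004 coding genes with a promoter peak the median was 420. Values ran from 206 at RpL35 to 2284 at RpL7. Of the 43 genes, 15 (34.9%) had a peak among the 630 of highest signal in the IDR list and 38 (88.4%) one among the 3153 highest, against 17.0% and 62.7% of the 3004 coding genes. No test was made of these shares, since the genes were chosen with results of these data known.

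The start regions of members with the highest signal values are shown here because they are the DNA under the strongest peaks of the family. Each holds 100 bases before the most upstream annotated start and the first 10 transcribed bases, read 5′ to 3′ on the gene's strand from the RefSeq Release 6 genome (dm6). The positions are chr3L:1668645-1668754 (minus strand) for RpL23A, chr3R:9401217-9401326 (minus) for RpL34b and chr3L:8600906-8601015 (plus) for RpL14. RpL28 is read from chr3L:3222951-3223060 (minus), RpL30 from chr2L:19009297-19009406 (minus), RpL13A from chr3R:5624374-5624483 (plus) and RpL22 from chrX:765121-765230 (minus). Capitals mark a DRE in RpL28, a motif 7 core in RpL13A and RpL22 and polypyrimidine initiator letters in RpL34b. The other windows of this set hold none of the letters searched. RpL7 is not printed, because its window runs into the first exon of the neighbouring gene.
RpL23A: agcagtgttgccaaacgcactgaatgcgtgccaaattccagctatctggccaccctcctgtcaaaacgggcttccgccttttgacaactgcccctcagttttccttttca
RpL34b: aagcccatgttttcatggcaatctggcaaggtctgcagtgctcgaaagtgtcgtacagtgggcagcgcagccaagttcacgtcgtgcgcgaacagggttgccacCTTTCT
RpL14: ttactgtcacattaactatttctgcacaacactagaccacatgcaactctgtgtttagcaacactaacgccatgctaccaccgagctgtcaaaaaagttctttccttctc
RpL28: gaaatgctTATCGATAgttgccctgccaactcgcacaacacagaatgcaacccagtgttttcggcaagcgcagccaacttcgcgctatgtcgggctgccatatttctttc
RpL30: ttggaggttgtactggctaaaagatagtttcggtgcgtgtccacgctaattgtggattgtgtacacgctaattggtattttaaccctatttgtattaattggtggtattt
RpL13A: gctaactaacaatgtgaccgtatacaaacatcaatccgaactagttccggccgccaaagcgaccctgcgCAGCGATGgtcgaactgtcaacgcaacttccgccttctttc
RpL22: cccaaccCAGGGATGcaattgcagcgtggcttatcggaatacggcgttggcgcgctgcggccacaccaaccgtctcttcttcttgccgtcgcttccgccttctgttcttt

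A second set is shown because a known element lay under the summit itself, within 20 bp of it. These members were chosen after their values were seen. Capitals mark an E-box, CACGTG, in RpL24 (chr2L:13395122-13395231, minus) and a DRE, TATCGATA, in RpL37-1 (chrX:15139358-15139467, minus) and RpL10Ab (chr3L:11822751-11822860, plus). In RpL27 (chr3R:25685042-25685151, minus) they mark a DRE, a motif 7 core and initiator letters.
RpL24: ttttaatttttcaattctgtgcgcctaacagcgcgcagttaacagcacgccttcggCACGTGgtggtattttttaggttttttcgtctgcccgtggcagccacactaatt
RpL27: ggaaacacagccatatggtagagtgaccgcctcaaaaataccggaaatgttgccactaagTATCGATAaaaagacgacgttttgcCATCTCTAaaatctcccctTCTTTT
RpL37-1: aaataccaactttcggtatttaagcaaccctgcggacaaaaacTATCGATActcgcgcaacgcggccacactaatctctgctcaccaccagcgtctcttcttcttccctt
RpL10Ab: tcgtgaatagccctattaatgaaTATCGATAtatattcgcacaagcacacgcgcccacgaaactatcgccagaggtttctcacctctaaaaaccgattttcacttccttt

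The last set comes from members without a promoter peak and shows that their starts can hold the same letters. RpL40 (chr2L:4227599-4227708, plus) has overlapping initiator letters and RpL24-like (chr3R:11431573-11431682, minus) a DRE, both in capitals. RpL9 (chr2L:11004180-11004289, minus) has neither in this window, and its initiator letters lie at its other annotated start.
RpL40: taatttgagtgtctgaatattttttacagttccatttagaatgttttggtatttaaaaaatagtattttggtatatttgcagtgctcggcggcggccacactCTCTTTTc
RpL24-like: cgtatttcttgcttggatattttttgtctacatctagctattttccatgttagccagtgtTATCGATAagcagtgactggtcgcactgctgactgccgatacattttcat
RpL9: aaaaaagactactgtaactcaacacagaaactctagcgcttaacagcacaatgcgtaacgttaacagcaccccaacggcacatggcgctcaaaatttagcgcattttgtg

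RpL7, a core protein of the large subunit, had the highest peak of the family (2L, 10200857 to 10201221). Its IDR signal value was 2284, rank 84 of 6307. Its signal was 863 in replicate 1, 617 in replicate 2 and 813 in replicate 3, at ranks 66, 88 and 103. It was first among the RpL genes in every replicate. The summit lay 31 bp inside the gene, and the start of the divergent neighbour Ripalpha, which encodes a replication protein A interacting protein, was 61 bp from it.

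The next members were RpL23A (IDR signal 1615, rank 209), RpL34b (1466, rank 256), RpL14 (1454, rank 264) and RpL28 (1351, rank 296). RpL23A sits at the exit of the tunnel through which the new protein leaves and is a docking site for factors that act on it. Its signal was 638, 397 and 572 in replicates 1, 2 and 3, at ranks 158, 278 and 254. RpL34b had 535, 379 and 543 at ranks 223, 307 and 277. RpL14 had 559, 400.2 and 517 at ranks 206, 272 and 304, so these 3 genes stood within the first 307 places of each list. RpL28 was at 550.4, 339.9 and 457, with ranks of 211, 390 and 401. Its summit lay 59 bp before its start, and starts of the translation factor gene eIF1 and of snoRNA:Or-CD11a were also within 500 bp.

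RpL30, RpL13A, RpL41 and RpL19 were also among the 10 highest, with IDR signal values between 1203 and 1249. Ranks of RpL30 in the 3 replicates were 328, 315 and 537, and those of RpL13A were 306, 417 and 471. RpL41, a very short peptide at the contact with the small subunit, ranked 310, 328 and 466. RpL19, which also reaches across to the small subunit, ranked 341, 468 and 476. These 4 genes exchanged places from replicate to replicate, and their order is not resolved. Like RpL7, RpL23A, RpL34b, RpL14 and RpL28, they stayed within the first 537 places of every replicate list.

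**Figure D1:**
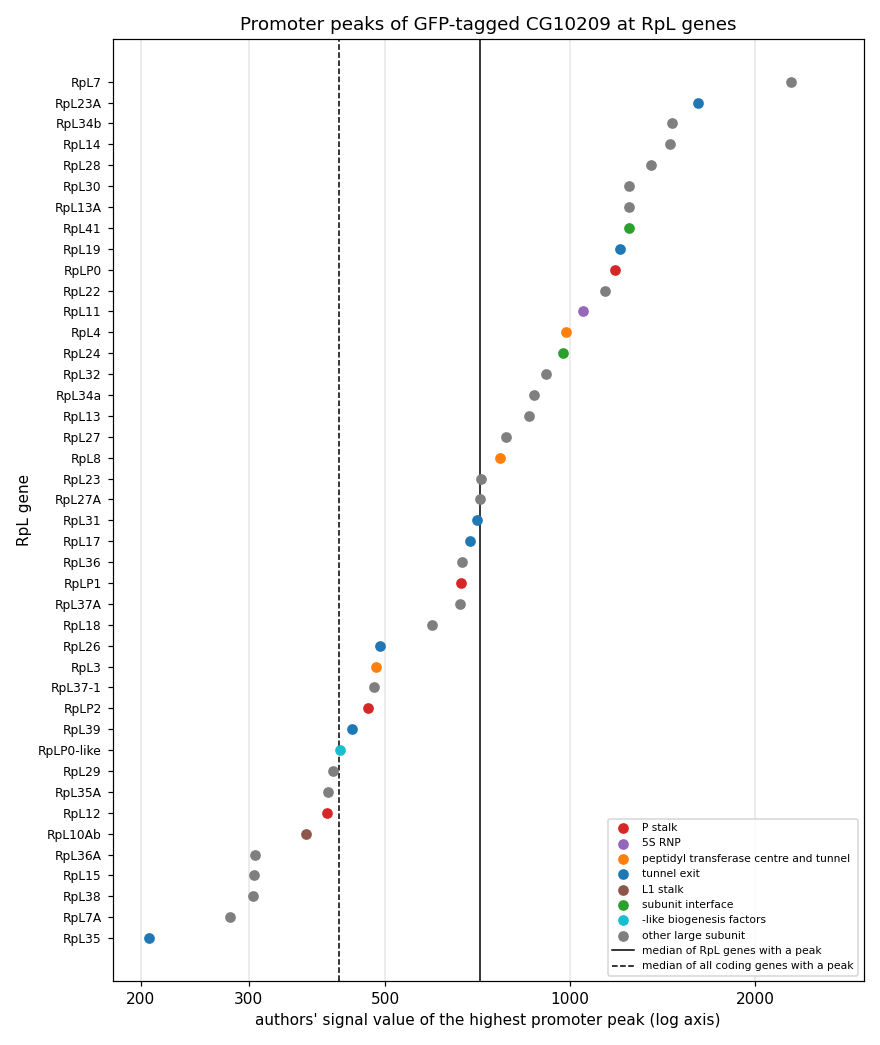
Signal value of the highest promoter peak (log axis, authors' unit) for RpL genes that had one (1 is not shown), coloured by the role of the protein in the ribosome, with the median of these genes (solid line, 714) and of all coding genes with a promoter peak (dashed line, 420). Points run from 206 at RpL35 to 1615 at RpL23A, RpL7 stands apart at 2284, and roles are mixed along the range.

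The 5 lowest peaks belonged to RpL35 (206, rank 5911), RpL7A (279.5, rank 4088), RpL38 (304.9, rank 3669), RpL15 (306, rank 3646) and RpL36A (307, rank 3632). The IDR list itself ends at 194.7, so RpL35 was close to its lower edge. RpL35 had signals of 54.3, 82.7 and 74.8 in the 3 replicates, and in replicate 1 its −log10 q was 0.94, short of 2. RpL7A had 123, 58.0 and 94.7, at ranks 2648, 7740 and 4931, its lowest place being in replicate 2. RpL36A had 100.5, 120.4 and 110.6, at ranks 3353, 2542 and 4037. RpL15 and RpL38 had no region at the promoter in replicate 2. RpL15 ranked 2129 in replicate 1 and 3545 in replicate 3, and RpL38 ranked 2066 and 4875. As background, RpL15 and RpL38 lie in the repeat-rich heterochromatin near the centromeres of their chromosomes.

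By role, all 4 genes of the stalk that recruits elongation factors had a promoter peak, beside 79.6% of the family and 21.5% of coding genes. At that family share a small group can readily be bound in full, so nothing particular to a role is read from such counts. IDR signals were 1181 at RpLP0, which anchors the stalk, 663 at RpLP1, 469 at RpLP2 and 402 at RpL12, which sits at its base. RpLP0 had 462, 329.7 and 385 in the 3 replicates (ranks 296, 407 and 555), and RpLP1 had 175, 253 and 218 (ranks 1646, 697 and 1518). Replicate 1 thus gave RpLP0 its highest place and RpLP1 its lowest. RpLP2 had no region in replicate 1, and 145 and 128 in the others. RpL12 had 132, 99.4 and 159.

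All 7 genes of the tunnel exit also had a promoter peak, again beside 79.6% of the family. Their signals were 1615 at RpL23A, 1203 at RpL19, 705 at RpL31, 686 at RpL17, 489.8 at RpL26, 442 at RpL39 and 206 at RpL35, with a median of 686. RpL17 also lines the tunnel, and RpL39 is a small protein close to its end. This role alone spanned nearly the whole range of the family.

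Around the peptidyl transferase centre, where peptide bonds are made, 3 of 4 genes had a promoter peak. RpL4, which reaches into the tunnel, had 982, RpL8 had 769 and RpL3 had 482, and RpL10, which lies close to the transfer RNAs, had none. RpL11 and RpL5 enter the ribosome together as a particle with 5S rRNA. RpL11 had a signal of 1050.1, with 322, 353 and 378 in the replicates, and RpL5 had no promoter peak. At the subunit interface, both RpL41 (1244) and RpL24 (971) had one. The L1 stalk, RpL40 and -like genes are described with the pairs and the unbound genes, and the remaining 29, to which no role was given, had 24 promoter peaks, with a median signal of 751.

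In 7 cases a pair of RpL genes share a name stem, and these pairs mostly differed. RpL34a (873) and RpL34b (1466) both had a promoter peak, as did RpLP0 (1181) and RpLP0-like (421). The summits at RpL34a and RpLP0-like were nearer to the starts of the neighbours Trmt61 and 14-3-3zeta. With each summit given to its nearest start alone, these 2 genes had none, and each of the 7 pairs had a single bound gene. RpLP0-like ranked 1787 and 2932 in replicates 2 and 3, lower than RpLP0, and had no region in replicate 1. In the other 5 pairs a single gene had a peak. These were RpL7 (2284) but not RpL7-like, RpL22 (1139) but not RpL22-like, RpL24 (971) but not RpL24-like, RpL37-1 (479.6) but not RpL37-2, and RpL10Ab (371) but not RpL10Aa, whose proteins form the mobile L1 stalk. As background, the yeast counterparts of RpL7-like, RpL24-like and RpLP0-like are assembly factors that are absent from the finished ribosome. Of the 14 genes in pairs 9 had a promoter peak, and of the 40 others 34 did (85%).

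The 11 genes without a promoter peak were RpL5, RpL6, RpL7-like, RpL9, RpL10, RpL10Aa, RpL21, RpL22-like, RpL24-like, RpL37-2 and RpL40. In 8 of them the pooled list had no region within 500 bp of a start, background included. The other 3 had weak ones: RpL24-like had a pooled signal of 154 at rank 8262 with a −log10 q of 1.87, RpL40 had 65.1 at rank 23036 and RpL6 had 64.7 at rank 23191. RpL40 encodes a ribosomal protein fused to ubiquitin, so it supplies ubiquitin as well.

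Single replicates differed from the pooled list at several of these genes. RpL9 had a region in replicate 2 with a signal of 145 (rank 1874, −log10 q 3.98) and in replicate 3 with 156 (rank 2510, −log10 q 4.11). Their summits lay 35 bp and 11 bp inside the gene from its nearest start, or 71 bp and 47 bp from its most upstream start. Nevertheless, the nearest pooled region to its most upstream start was 7089 bp away, and replicate 1 had none at the promoter. RpL10 had 122 in replicate 1 (rank 2659) and 78.1 in replicate 3 (rank 6300), with summits 32 bp and 13 bp before the start, and its nearest pooled region was 30500 bp away. Within replicate 3, RpL9 stood above RpL15 (121), RpL38 (95.4) and RpL7A (94.7), which had promoter peaks. RpL10 stood below these 3 and above RpL35 (74.8), which also had one. Of the 46 RpL genes with a −log10 q of 2 or more in at least 2 replicates, 2 had no pooled region at the promoter (4.35%), as did 127 of 3386 such coding genes (3.75%). The cause was not tested.

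At RpL5, 1 replicate alone had a region past this q: replicate 1 had 137 at rank 2295, and the nearest pooled region was 214974 bp away. RpL24-like had 90.9 in replicate 2 and 62.2 in replicate 3, both with a −log10 q over 2, and none in replicate 1. RpL6 had 54.8 in replicate 2, with a −log10 q of 2.27, and 30.9 in replicate 3, with 0.454. RpL21 had a single region, in replicate 1, with a signal of 57.1 and a −log10 q of 1.04. RpL22-like, RpL7-like and RpL40 had regions between 23.7 and 37.5, all short of 2. RpL10Aa and RpL37-2 had no region at the promoter in any list, which made them the emptiest promoters of the family.

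Across the family, a region with a −log10 q of 2 or more lay at the promoter of 36 of 54 genes in replicate 1 (66.7%), 44 in replicate 2 (81.5%) and 46 in replicate 3 (85.2%). The shares over all coding genes were 14.9%, 30.2% and 26.7%. All 3 replicates had one at 32 RpL genes (59.3%, against 13.8% of coding genes), and at least 2 had one at 46 (85.2%, against 24.2%). At least 1 had one at 48 genes, with a background of 33.9%. Where a gene had a promoter peak, the median rank of its region was 675 in replicate 1 (35 genes with a region), 1015 in replicate 2 (41 genes) and 1215 in replicate 3 (43 genes). The medians over coding genes with a promoter peak were 1720.5, 2572 and 2475.

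Replicate 1 had no region at all at 8 of the 43 bound promoters (18.6%, against 21.4% of bound coding genes). These were RpL13, RpL36, RpL26, RpLP2, RpL29, RpL35A, RpL10Ab and RpLP0-like, 8 genes listed after their values were seen. Most were lower peaks: their median rank was 1836 in replicate 2 and 2750.5 in replicate 3, against 697 for the 33 others with a region in replicate 2 and 1009 for the 35 others in replicate 3. RpL13 was not low, with an IDR signal of 858 and ranks of 517 in replicate 2 and 800 in replicate 3. Its neighbours in the IDR order, RpL34a and RpL27, ranked 817 and 741 in replicate 1. Replicate 2 had no region at 2 bound promoters, RpL15 and RpL38 (4.65%, against 0.766%), and replicate 3 had one at all 43.

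The order of the bound RpL genes was similar in the 3 replicates. Spearman's correlation of signal across genes was 0.920 between replicates 1 and 2 (33 genes), 0.954 between 1 and 3 (35) and 0.934 between 2 and 3 (41). Over all bound coding genes it was 0.808 (2340 genes), 0.889 (2347) and 0.862 (2962). These are correlations across genes, which share each library and its control, and genes without a region in a list were left out.

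**Figure D2:**
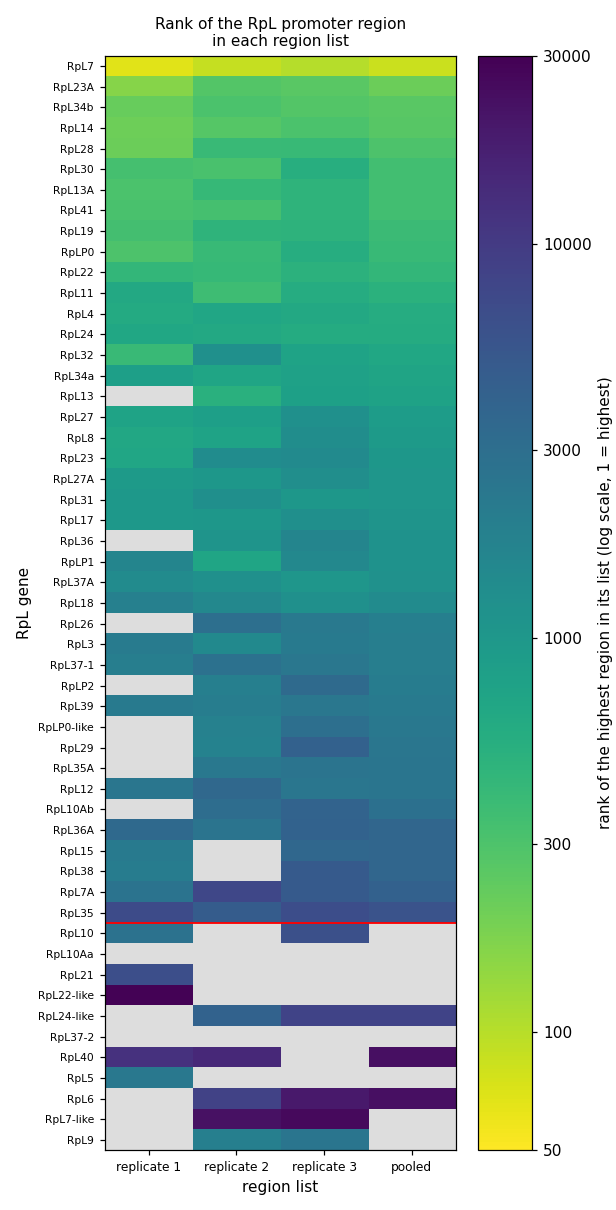
Rank (colour, log scale, 1 the highest of 30000) of the highest region within 500 bp of a start of each RpL gene in the lists of the 3 replicates and of the pool; grey marks a list without a region there, and genes below the red line had no promoter peak, and 1 gene above it is not shown. The strongest genes keep high places in all columns, replicate 1 is grey at 8 genes above the line, and RpL9, RpL10 and RpL5 below it have replicate regions but none in the pooled column.

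Summits lay close to the RpL starts. The median position was -41 bp from the nearest start of the gene (negative is upstream), with quartiles of -71 and -22.5. The order-statistic interval was -61 to -32, again over genes and not over replicates. The position farthest inside a gene was 31, at RpL7. Over all coding genes with a promoter peak the median was -145. Within 100 bp of the start lay 38 of 43 summits (88.4%, against 31.3% of coding genes), and 36 (83.7%, against 88.0%) lay upstream. Of the 1884 coding genes with a peak among the 3153 highest, 26.9% had it within 100 bp. Whether signal and position are related was not tested.

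Summits beyond 100 bp included those of RpL23 at -131, RpL34a at -130, RpL26 at -109 and RpL32 at -103. RpL34a and RpL32 have a divergent coding neighbour whose start was 99 and 206 bp from the same summit. At RpL3 the summit was on the start itself, and at RpL36A, RpL30, RpL35A, RpL27A, RpL36 and RpL7 it was 3 to 31 bp inside the gene.

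**Figure D3:**
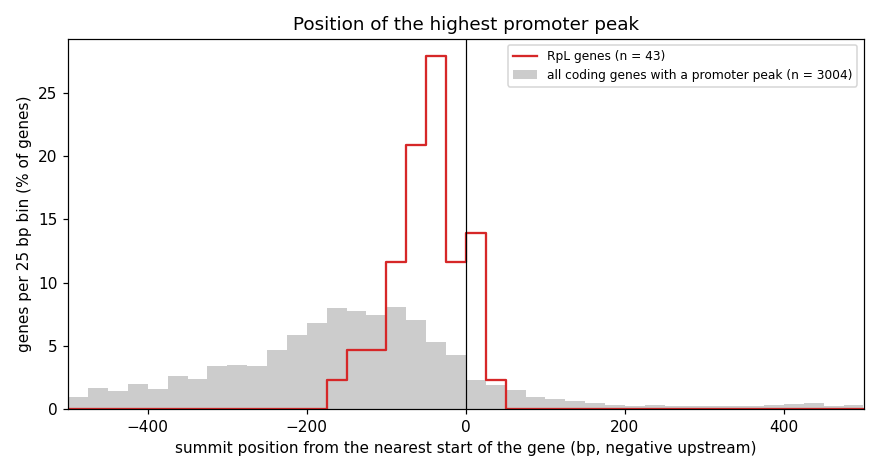
Position of the highest promoter peak's summit from the nearest start of the gene (bp, negative upstream) in 25 bp bins, as percent of the 43 RpL genes (red line) and of the 3004 coding genes with a promoter peak (grey). The fullest RpL bin, from -50 to -25 bp, holds 12 genes (27.9%), while the coding genes form a broad mound from about 250 bp upstream to the start.

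Peaks can lie between 2 genes, so each summit was also assigned by distance. The RpL start was the nearest start of any gene at 41 of 43 promoter peaks (95.3%), against 72.2% over coding genes. At RpL34a the start of Trmt61, a tRNA methyltransferase gene, was nearer (99 against 130 bp), and at RpLP0-like that of 14-3-3zeta, a gene of a phosphoprotein-binding adaptor (26 against 61 bp). Another gene's start lay within 500 bp at 26 of the 43 (60.5%, against 58.4%), so neighbours were about as common as elsewhere. At RpL13 the summit was 28 bp from its start and 56 bp from that of Dref, which encodes DREF. Limiting both groups to genes whose own start was nearest left 41 RpL genes with a median of -40 bp and 37 within 100 bp (90.2%). The 2168 such coding genes had a median of -112 bp and 39.9% within 100 bp.

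A divergent coding neighbour, starting up to 500 bp upstream on the other strand, was present at 22 RpL genes (40.7%, against 38.5% of RpS and 26.4% of coding genes). Of these 20 had a promoter peak (90.9%), with a median signal of 947, and of the 32 without such a neighbour 23 did (71.9%), with a median of 489.8. Coding genes showed the same order, with 39.7% bound and a median of 454 among 3687 with a divergent neighbour, and 15.0% and 390.4 among 10281 without. A peak in such a place counts for both genes, and its signal is that of both.

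RpL peaks were narrow. Their median width was 292 bp, the narrowest being 115 bp at RpLP0-like, against 444 bp over coding genes with a promoter peak. Widths below 444 bp were found at 34 of 43 (79.1%, against 39.6%). RpS peaks had a median width of 283 bp, with 21 of 29 (72.4%) below 444 bp. Among the 3153 peaks of highest signal, 33 of 38 RpL peaks (86.8%) and 62.0% of those at 1884 coding genes were narrower than 444 bp. A width of 444 bp is also the median of the whole pooled list, background included, and 8 RpL peaks had exactly that width. A second promoter peak was present at RpL28 (signal 397), RpL27A (329), RpL10Ab (322), RpL18 (256) and RpL36 (237), or 11.6% of bound members against 14.4%.

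Bound RpL genes were found on each of the 5 large arms: 6 of 6 on X, 9 of 10 on 3L, 12 of 14 on 2R, 8 of 11 on 3R and 8 of 13 on 2L. Coding genes were bound at 19.5% to 22.8% on these arms. The 5 unbound genes on 2L include RpL5 and RpL21, which lie toward its centromere.

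The small subunit genes, RpS, were described by the same steps, with 29 of 39 bound (74.4%) and a median signal of 549. Their summits had a median position of -33 bp with 27 of 29 (93.1%) within 100 bp. Peaks among the 630 highest were found at 5 of these 29 (17.2%). In the mitochondrial large subunit genes, mRpL, 16 of 47 were bound (34.0%), with a median signal of 316 and a median position of -148.5 bp. These mRpL genes had 5 of 16 summits within 100 bp, and a divergent coding neighbour at 34 of 47. The mRpL count fell to 6 when a summit was given to its closest gene only, to 8 without replicate 2 and to 7 without replicate 3. Most summits lay within 100 bp in both cytoplasmic lists, and the difference from the mitochondrial one was not tested.

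Letters of known promoter elements were searched on both strands of the window from 250 bp before to 50 bp after the most upstream start. Polypyrimidine initiator letters were searched on the sense strand, beginning within 5 bp of a start. Of the 4 runs searched, CTCTTT was the first and CTTTTT the second, while CTTTCT was the third and the last was TCTTTT, and some overlap. They were found at some annotated start of 28 of 54 RpL genes (51.9%), against 2.05% of coding genes. RpS genes had them at 51.3% and mRpL genes at 4.26%. Members with a promoter peak had them in 23 of 43 cases and those without in 5 of 11, among them RpL40, RpL5, RpL9, RpL21 and RpL7-like. Bound members with the letters at some annotated start had a median signal of 785 and those without one of 588. At the most upstream start alone the letters were found at 14 of 54 RpL genes (25.9%), against 1.42% of coding genes. These were 13 of 43 with a promoter peak (30.2%) and 1 of 11 without (9.09%). RpS genes had them at that start in 33.3% of cases and mRpL genes in 2.13%.

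The DRE letters TATCGATA were found in 15 of 54 RpL windows (27.8%), against 9.36% of coding windows and 12.9% of those of coding genes with a promoter peak. They were about as frequent without a peak (3 of 11) as with one (12 of 43), and the median signal of bound members was 726 with and 714 without them. RpS windows had them at 33.3% and mRpL windows at 23.4%. Within 100 bp of the summit, 11 of 43 RpL peaks had a DRE (25.6%, against 6.86%). At RpL27, RpL10Ab, RpL37-1, RpL36A and RpL41 its first base was within 8 bp of the summit.

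The E-box CACGTG, a palindrome that basic helix-loop-helix factors such as Myc bind, was found in 8 of 54 RpL windows (14.8%), against 4.20%. It was found in 0 of 39 RpS windows and in 3 of 47 mRpL windows (6.38%). Within 100 bp of the summit it lay at 6 of 43 RpL peaks (14.0%, against 2.26%), at 2 of 29 RpS peaks (6.90%) and at 1 of 16 mRpL peaks (6.25%). Its first base was 6 bp after the summit at RpL11, and 15, 18 and 20 bp before it at RpL7, RpL29 and RpL24. Median signal was 1010.8 in the 6 bound members with it in the start window and 705 in the 37 without. These 6 ran from 411 at RpL29 to 2284 at RpL7. They differ from the 6 near the summit, since at RpL34b it began 118 bp from the summit.

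Motif 1 core letters, GTCACACT, were found in 7 RpL windows (13.0%, against 6.61%). These were 7 of 43 with a promoter peak (16.3%, against 9.62% of coding genes with one) and 0 of 11 without. Since 43 of all 54 RpL genes had a peak, most of any 7 would have one, and no link to binding is read from this. Motif 7 core letters (CAGCNCTA, CATCNCTA, CAGCNCTG or CATCNCTG) were found in 13 (24.1%, against 19.1%). Among genes with a promoter peak they were found in 12 of 43 RpL windows (27.9%, against 30.5%). TATA letters, TATAAA, were found in 24 (44.4%, against 45.8%). They were counted at any place in the window and on either strand, so this is not a count of TATA boxes. Near RpL summits they were less frequent: 9 of 43 windows of 100 bp either side of the summit had them (20.9%, against 40.1%). Those RpL windows also held less A and T, with a median of 58.2% against 65.7%, and the share of this in the TATA count was not tested. Neither is particular to RpL genes. At RpS summits 4 of 29 windows had TATA letters (13.8%) and the median A and T was 56.7%. At mRpL summits 4 of 16 had them (25%), with 63.9% A and T. GAGAGAG was found in 0 of 54 windows, against 5.86%, and in 0 of 39 RpS and 1 of 47 mRpL windows. CACTGAGA, taken from earlier work on all peaks of these data, was in 0 of 54 and CACTGTGC in 1, RpL23A, against 1.05% and 1.49%. At such backgrounds 54 windows would hold few of these words, so nothing is read from these counts.

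**Figure D4:**
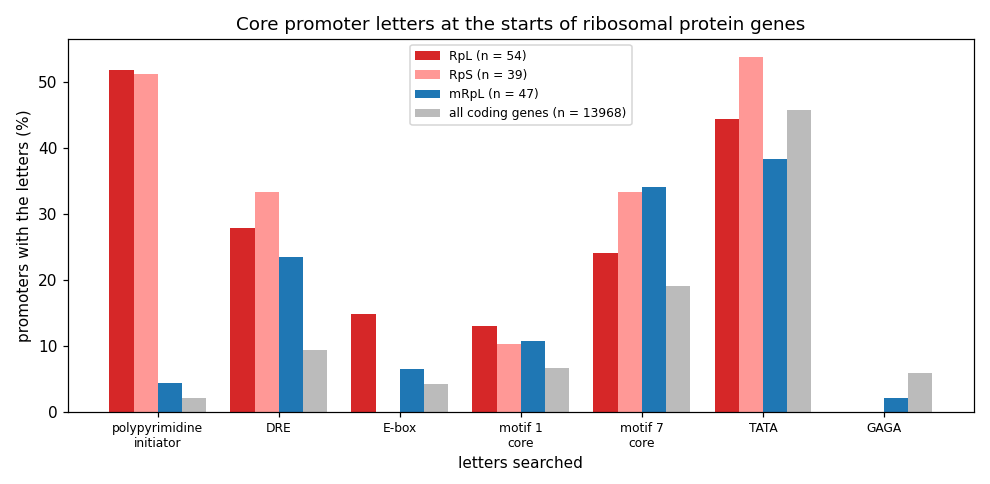
Percent of promoters that hold each set of letters in RpL (54), RpS (39), mRpL (47) and all coding genes (13968); initiator letters were sought at any annotated start, the others from 250 bp before to 50 bp after the most upstream start. Initiator letters are found at 51.9% of RpL genes and 2.05% of coding genes, E-box letters in this window at 14.8% of RpL and 0% of RpS genes, and TATA letters at 44.4% of RpL and 45.8% of coding genes.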

How the data were processed

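ChIP-seq of GFP-tagged CG10209 was measured in 3 biological replicates, all of 1 group. Per the deposited text files, regions were called from dm6 alignments of each replicate, and of the replicates pooled, against 1 common control alignment. Which aligner, peak caller and IDR threshold were used is not given in the sources used here. Per the labels, DNA was sonicated to between 200 and 800 bp. The deposited signal value and −log10 q of each region, and its summit offset, were used as given. Signal mixes enrichment with the scale of its list, and most strong regions share the ceiling −log10 q of their list. Lists with dm3 coordinates were not used.

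Starts came from release 115 of Ensembl, limited to 18277 genes on the assembled arms that are not transposable elements. Coordinates are 1-based. Where a gene had several promoter regions, that of highest signal was used. Counting used Python 3.11.15 with pandas 2.3.3 and numpy 2.4.6, with figures in matplotlib 3.10.9, and was tested on simulated summits. Genes were named by rule: all without a promoter peak, the 10 highest, the 5 lowest, paralogue pairs and P stalk genes. Of the members, 1 is not reported here by name but is included in all counts and medians. Others were named after their values were seen, including members of further roles and those with an element, a neighbour or an unusual position. Sequence windows were those of highest signal outside 2R with at most 10 annotated exon bases, unless another reason is given. The members, lists, motifs and alternatives were chosen with earlier results of these data known, so shares are set beside those of all coding genes and no p-values are given. Alternatives changed the window, the start, the peak list, the assignment of peaks and the replicates. Leaving out a replicate kept IDR peaks overlapped by at least 1 bp by a region among the 6307 of highest signal in both others, because IDR was not rerun.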

Additional observations from a re-analysis of the deposited data

How the results depend on the processing

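In all, 17 results were recomputed under 47 alternative values, of which 43 stayed within 1.5 times a count or within the spread of a median, and 4 did not. The count of RpL genes with a promoter peak was 43 with windows of 250 or 1000 bp, with the most upstream start alone, with any base of the peak in the window and with pooled regions at a −log10 q of 2 or more. Over coding genes these settings gave 16.8%, 25.1%, 19.0%, 23.1% and 24.6%. The 1000 bp window, any base of the peak and the pooled regions take in every promoter peak. They could only add RpL genes, so an unchanged count there shows that none was added and not that the 43 are robust. The 3153 peaks of highest signal kept 38 (13.5% of coding genes) and the nearest start alone kept 41 (16.2%). Without each replicate in turn the count was 31 to 39, where coding genes gave 14.3% to 17.7%; the lowest came without replicate 3. The same omissions gave 23 to 27 RpS genes, 7 to 13 mRpL genes, a median RpL signal of 769 to 912 and a median RpL position of -41 to -38 bp. An omission only removes peaks, so these counts could not rise. The peaks kept have signals and summits pooled over all replicates, so the medians do not show how values depend on a replicate. The mRpL count of 16 fell to 6 with the nearest start alone, to 8 without replicate 2 and to 7 without replicate 3. TATA letters at bound RpL genes fell from 16 to 9 when the window was 100 bp either side of the summit. A setting chosen after seeing the data, a −log10 q of 2 or more in at least 2 replicates, gave 46 RpL genes, the 43 and RpL9, RpL10 and RpL24-like. No paired analysis was possible because the series has 1 group. Depth is unknown, so a missing region cannot be told from a shallow library.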

Other observations

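Reading the printed windows drew attention to short words that the search had not included. They were counted afterwards over the windows of 300 bp and have no test. The counts include the RpL genes in whose printed windows the words were seen, so part of any excess among RpL genes was built in. CCACACT, which shares its last letters with the motif 1 core, was found on either strand in 11 of 54 RpL windows (20.4%), against 4.52% of coding windows, 10.3% of RpS and 14.9% of mRpL windows. It was present at 8 of 43 RpL genes with a promoter peak and at 3 of 11 without one, RpL21, RpL22-like and RpL40. GGTATTT was found in 11 RpL windows (20.4%, against 9.87%), RpL30, RpL24 and RpL40 among them, and in 23.1% of RpS and 14.9% of mRpL windows. TAACAGC was found in 7 RpL windows (13.0%, against 5.05%), including RpL24, RpL35A and RpL9, and in 5.13% of RpS and 10.6% of mRpL windows.

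Within 5000 bp of the most upstream start, a reach chosen after the values were seen, 4 of 54 RpL genes had no pooled region at all, against 22.1% of coding genes. They were RpL5, RpL9, RpL10 and RpL21, and each of these 4 had a region at its own promoter in at least 1 replicate list. That of RpL21 had a −log10 q of 1.04, short of 2. How often other coding genes without a pooled region have a replicate region was not counted, so nothing particular to RpL genes is read from this.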
